A study of Homo sapiens with 6 samples.

Results

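Keratins 5, 14, 15, 6A, 6B, 6C, 16 and 17 are the keratins that stratified epithelium makes in its basal layer (KRT5, KRT14, KRT15) or under stress and after wounding (KRT6A, KRT6B, KRT6C, KRT16, KRT17). Their 8 genes were taken by symbol from the 30178 genes of the expression table, and all 8 had a row. The set was selected on the FPKM values of KRT14 in these same libraries, far lower in both MB21D2 lines than in the vector line, so the values of KRT14 against the vector are a description without a test. The other members were added as keratins of the same layers or the same response, with their values known.

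The cells were CAL27, an established oral carcinoma line that the labels class as adenosquamous. RNA sequencing compared cells with constitutive expression of the Q311E form of MB21D2, cells with constitutive expression of wild-type MB21D2, and cells with an empty vector, with 2 libraries (A and B) in each group. MB21D2 belongs, like the DNA sensor cGAS, to the Mab-21 domain proteins, and the design text of the study sets Q311E against wild type. All 3 groups share the treatment: the labels describe stable lines with proteins fused to GFP, grown in DMEM with serum, antibiotics and the selection drug G418. The labels name neither the promoter that drives MB21D2 nor whether a line is a clone or a pool, so the effect of MB21D2 and a difference between the lines themselves cannot be told apart. Nor do they say that A and B came from separate cultures, and the p-values reflect the spread between 2 libraries of a line, which may be no more than technical.

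Keratins are the intermediate filament proteins of epithelial cells. A filament is built from pairs of a type I and a type II chain, and a chain without a partner is degraded. KRT14 and KRT15 are type I chains that pair with the type II chain KRT5 in basal cells. KRT16 and KRT17 are type I chains that appear together with the type II KRT6 chains in wounded, inflamed or transformed squamous epithelium. The type I members lie together on chromosome 17 and the type II members on chromosome 12.

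Recovered library totals ran from 20645410 reads in vector B up to 24147306 reads in vector A. MB21D2 had 32.8 and 21.2 FPKM in Q311E cells, 104 and 106 FPKM in wild-type cells and 8.31 and 7.15 FPKM in vector cells (FPKM, reads scaled to exon length and library total). It was thus lower in Q311E than in wild-type cells, at −1.95 ± 0.20 on the log2(FPKM + 1) scale (SE, limma adjusted p = 0.00592). In that comparison the form of MB21D2 and its level cannot be told apart. The Q311E libraries stood further apart from each other than the other pairs: the SD over genes of the log2 difference between B and A was 0.436 for Q311E, 0.145 for wild type and 0.192 for vector. The epithelial markers EPCAM and CDH1 were present in every library at 58.4 FPKM or more, and 7 of 8 epithelial markers had a mean of at least 1 FPKM. Summed mesenchymal markers (6 of 10 at that level) had 53.4 and 41.1 FPKM in Q311E cells, 71.8 and 73.1 FPKM in wild-type cells and 47.8 and 44.3 FPKM in vector cells. VIM, a filament protein of mesenchymal cells, was at or below 0.0997 FPKM. Other genes of that list were expressed, such as FN1 at 13.65 to 31.43 FPKM and SNAI2 at 11.87 to 17.34 FPKM. The leukocyte gene PTPRC was at or below 0.00478 FPKM, but CD14 of the same list had 1.784 to 18.8 FPKM. In bulk RNA, fewer cells that express a keratin and less keratin RNA per cell cannot be told apart.

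The members are close copies of each other, which bears on how reads can be assigned. Over aligned coding bases, KRT6A was 97.5% identical to KRT6B and 97.9% to KRT6C, and KRT6B was 98.5% identical to KRT6C. KRT14 was 87.6% identical to KRT16, 83.8% to KRT17 and 71.9% to KRT15. Windows of 60 coding bases show where the copies differ. Each was picked, among single-exon windows, for the most positions that set KRT6A or KRT14 apart from both others. They are thus not typical of the whole coding sequence. Capitals mark each position where the 3 sequences of a set are not all equal (GRCh38, minus strand, 5′ to 3′). The KRT6 windows lie at chr12:52492694-52492753 (KRT6A), chr12:52451584-52451643 (KRT6B) and chr12:52473243-52473302 (KRT6C).
KRT6A: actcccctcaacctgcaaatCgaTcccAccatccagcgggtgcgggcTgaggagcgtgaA
KRT6B: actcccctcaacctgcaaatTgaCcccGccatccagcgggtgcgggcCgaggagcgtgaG
KRT6C: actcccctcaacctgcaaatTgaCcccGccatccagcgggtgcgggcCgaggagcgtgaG

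At 5 positions KRT6A differed from both other copies, while KRT6B and KRT6C were identical throughout the window. The windows of the type I genes lie at chr17:41584341-41584400 (KRT14), chr17:41611429-41611488 (KRT16) and chr17:41622439-41622498 (KRT17). Their sequences were not all equal at 14 positions, and at 7 of these KRT14 differed from both KRT16 and KRT17.
KRT14: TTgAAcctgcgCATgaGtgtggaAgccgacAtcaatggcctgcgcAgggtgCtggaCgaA
KRT16: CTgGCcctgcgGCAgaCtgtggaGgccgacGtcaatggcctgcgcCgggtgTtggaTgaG
KRT17: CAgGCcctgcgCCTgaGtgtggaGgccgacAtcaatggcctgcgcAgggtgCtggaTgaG

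Of the 50-base stretches of each principal transcript, 53.6% of those of KRT6C, 47.1% of those of KRT6B and 39.1% of those of KRT6A also occurred in a transcript of another gene. The shares were 23.8% for KRT14, 22.0% for KRT16 and 17.4% for KRT17, and only 3.99% for KRT5 and 0.725% for KRT15. KRT14 and KRT16 shared 180 stretches, which is 11.2% of those of KRT14. How the authors assigned reads from shared stretches is not given in the sources used here, so the split among KRT6A, KRT6B and KRT6C, and low levels of KRT16 beside a high KRT14, are uncertain. Of 10 annotated pseudogenes of KRT16 and KRT17 with a row (KRT17P3 and KRT17P6 had none under these names), 9 stayed under 0.15 FPKM in every library. KRT16P4, which occurs in 91 of the shared stretches of KRT14 and 28 of those of KRT16, was the exception. It had 0 reads in the 4 MB21D2 libraries, and 11 and 8 reads in the vector libraries. The part of stretches shared with KRT14 in these reads was not tested.

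KRT14 was the most abundant member in vector cells and almost absent from both MB21D2 lines. KRT14 (ENSG00000186847, chr17:41582279-41586921, minus strand, GRCh38) had 0.771 and 0.902 FPKM in Q311E cells, 2.08 and 2.35 FPKM in wild-type cells, and 762 and 697 FPKM in vector cells. These values stand for 37 and 44 reads in Q311E cells, 107 and 113 reads in wild-type cells, and 41495 and 32438 reads in vector cells. Every MB21D2 library was far below both vector libraries, and the Q311E libraries were below the wild-type ones. The mean was 872 times higher in vector than in Q311E cells, and 329 times higher in vector than in wild-type cells. On the log2(FPKM + 1) scale, on which all fold changes here are given and which understates changes of low genes, the difference from the vector was −8.63 ± 0.09 for Q311E and −7.83 ± 0.09 for wild type (SE, n = 2 libraries a group).

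The remaining KRT14 differed between the MB21D2 lines. KRT14 fell in Q311E cells to a mean of 0.837 ± 0.0929 FPKM, against 2.22 ± 0.190 FPKM in wild-type cells (SD, n = 2 each). The log2 difference was −0.81 ± 0.09 (SE, limma adjusted p = 0.0073). The set was selected on these same values, though for their distance from the vector. They rest on 37 and 44 reads in Q311E and 107 and 113 reads in wild-type cells. Of the KRT14 stretches, 23.8% also occur in other genes, and their part in this difference was not tested. The call was lost without wild type A (adjusted p = 0.0814) and without wild type B (adjusted p = 0.0965), and its size was then −0.87 and −0.75.

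KRT5, the type II partner of KRT14, passed in no comparison with all libraries in the fit and was abundant in every library. KRT5 (ENSG00000186081, chr12:52514575-52520687, minus strand) had 473 and 579 FPKM in Q311E cells, 405 and 417 FPKM in wild-type cells, and 522 and 537 FPKM in vector cells. The Q311E libraries lay on both sides of the vector libraries, and the wild-type libraries were the lowest. The log2 difference of Q311E from vector was −0.02 with a 95% interval of −0.34 to 0.31 (limma adjusted p = 0.939). Wild type was at −0.36 from vector, with an interval of −0.69 to −0.04, and did not pass after adjustment (adjusted p = 0.126). Q311E against wild type was 0.35 and did not pass either (adjusted p = 0.0962). Wild type against vector did pass, at the same size, when only these groups were fitted (adjusted p = 0.00454) or without Q311E A (0.00487) or B (0.00466), and Q311E against wild type passed without Q311E A, at 0.49 (0.00214).

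The balance of this pair moved with KRT14. The ratio of KRT14 to KRT5 was 0.00163 and 0.00156 in Q311E cells, 0.00514 and 0.00563 in wild-type cells, and 1.46 and 1.30 in vector cells (ratio of FPKM, both per kilobase of exon). Per kilobase of the principal transcript the mean ratio was 0.00133 in Q311E cells, 0.00448 in wild-type cells and 1.15 in vector cells. In vector cells the RNA of KRT14 was thus slightly above that of KRT5, and in the MB21D2 lines KRT5 exceeded KRT14 by a mean of 627 times (Q311E) and 186 times (wild type) on the FPKM scale. Ratios are described by the value of each library and were not tested.

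**Figure D1:**
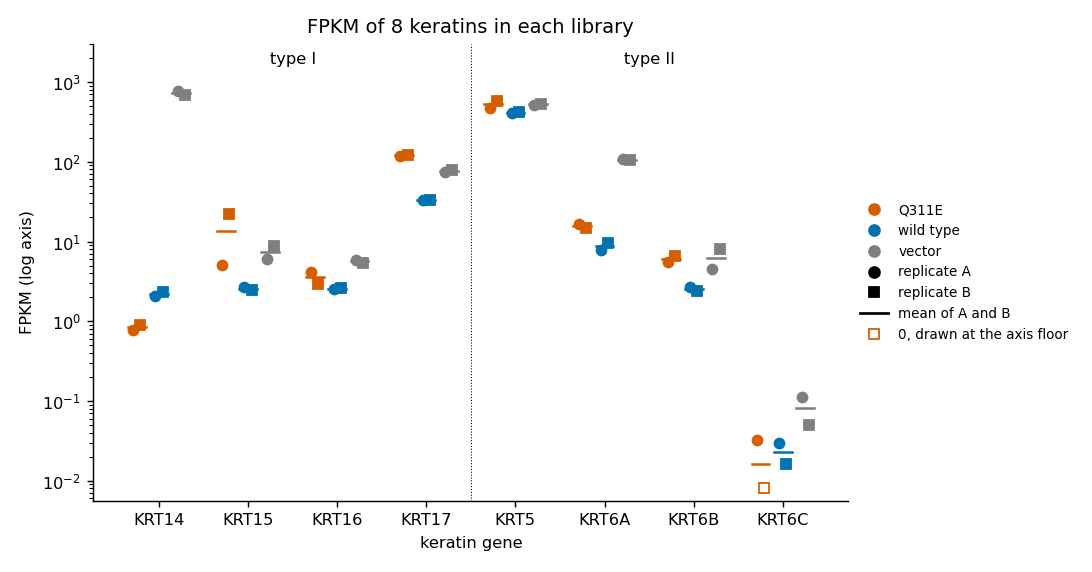
FPKM of the 8 basal and stress keratins in each library on a log axis, grouped as Q311E, wild type and vector, each point 1 library (circle A, square B), short lines the means, and a 0 drawn as an open square at the axis floor. KRT14 lies between 0.771 and 2.35 FPKM in the 4 MB21D2 libraries and at 697 FPKM or more in both vector libraries, while KRT5 stays between 405 and 579 FPKM in all 6.

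KRT15, a type I keratin of basal cells and of hair follicle stem cells, was low, and its Q311E libraries stood far apart. KRT15 (ENSG00000171346, chr17:41513743-41522529, minus strand) had 5.09 and 22.2 FPKM in Q311E cells, 2.66 and 2.44 FPKM in wild-type cells, and 6.09 and 8.80 FPKM in vector cells. Q311E B was the highest of the 6 libraries and Q311E A was below both vector libraries, so these groups overlap, while both wild-type libraries were the lowest. No comparison passed with all libraries in the fit: the log2 difference was 0.51 for Q311E against vector (limma adjusted p = 0.584), −1.23 for wild type against vector (adjusted p = 0.224) and 1.74 for Q311E against wild type (adjusted p = 0.0823). Wild type against vector passed, at the same −1.23, when only these groups were fitted (adjusted p = 0.00274) or without Q311E A (0.00258) or B (0.00263). Q311E against vector was −0.45 without Q311E B, and 1.48 without Q311E A, where it passed (0.00243). Q311E against wild type passed without either Q311E library, at 2.71 without A (0.000295) and 0.78 without B (0.0246). The summed level of the leukocyte markers in the table (3 of 4 listed, 1 with a mean of at least 1 FPKM, nearly all of it CD14) was 4.93 and 18.8 FPKM in Q311E cells, 2.40 and 2.58 FPKM in wild-type cells, and 1.83 and 3.19 FPKM in vector cells, so it was also highest in Q311E B. Summed endothelial markers (3 listed, 1 at that level, nearly all of it CDH5) had 22.7 and 35.6 FPKM in Q311E cells, 15.9 and 15.5 FPKM in wild-type cells, and 20.1 and 21.5 FPKM in vector cells. The part of these markers in the KRT15 values, and in those of KRT17, was not tested. The only annotated gene overlapping a member, the microRNA gene MIR6510, lies within KRT15 on the same strand.

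Among the stress keratins of type II, KRT6A carried most of the RNA and fell in both MB21D2 lines. KRT6A (ENSG00000205420, chr12:52487174-52493257, minus strand) had 16.7 and 14.97 FPKM in Q311E cells, 7.90 and 9.49 FPKM in wild-type cells, and 109 and 104 FPKM in vector cells. All 4 MB21D2 libraries were below both vector libraries, with Q311E between wild type and vector. The log2 difference from vector was −2.68 ± 0.11 for Q311E (limma adjusted p = 0.00159) and −3.48 ± 0.11 for wild type (adjusted p = 0.000385). KRT6A was also higher in Q311E than in wild-type cells, by 0.80 ± 0.11 (adjusted p = 0.01). The difference of wild type from vector was called under every alternative and with any library left out, with a highest adjusted p of 0.0247. That of Q311E from vector was lost without vector A (adjusted p = 0.0695) or vector B (0.0521), and that of Q311E from wild type was lost when wild type A (0.098) or B (0.0765) was left out.

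KRT6B, a close copy of KRT6A, was higher in Q311E than in wild-type cells and lay at the level of the vector. KRT6B (ENSG00000185479, chr12:52446651-52452126, minus strand) had 5.49 and 6.59 FPKM in Q311E cells, 2.70 and 2.36 FPKM in wild-type cells, and 4.57 and 7.95 FPKM in vector cells. The Q311E libraries lay between the 2 vector libraries, and both wild-type libraries lay below all others. KRT6B rose in Q311E against wild type by 0.99 ± 0.23 (limma adjusted p = 0.0336). Wild type against vector was −1.0 ± 0.23 and just missed the threshold (adjusted p = 0.0522), and Q311E against vector was −0.01 with an interval of −0.60 to 0.58 (adjusted p = 0.983). The KRT6B call was lost without a filter on low values (adjusted p = 0.0965), with quantile normalization (0.0573) and when wild type A (0.153) or B (0.183) was left out. Wild type against vector passed with a pseudocount of 0.1 (0.0438), TPM scaling (0.0397), the replicate block (0.0498), only these groups fitted (0.0156) and without Q311E A (0.0153) or B (0.0152).

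KRT6C (ENSG00000170465, chr12:52468516-52473785, minus strand), which differs from KRT6B at 25 of 1692 aligned coding bases, was barely detected. It had 2 and 0 reads in Q311E cells, 2 and 1 reads in wild-type cells and 8 and 3 reads in vector cells, and its mean of 0.0403 FPKM kept it out of the tests.

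KRT16, the type I keratin induced with KRT6 in wounds and psoriasis, was low in all lines. KRT16 (ENSG00000186832, chr17:41609778-41615899, minus strand) had 4.19 and 2.89 FPKM in Q311E cells, 2.57 and 2.57 FPKM in wild-type cells, and 5.94 and 5.36 FPKM in vector cells. The 3 groups did not overlap, with vector the highest and wild type the lowest. KRT16 fell in wild-type cells, at −0.90 ± 0.15 on the log2 scale against vector (limma adjusted p = 0.0251). Q311E against vector was −0.56 (adjusted p = 0.0615) and Q311E against wild type was 0.33 (adjusted p = 0.154). The wild-type call was lost without a filter on low values (adjusted p = 0.0836) and without any of the 4 libraries compared (0.167 to 0.194). Q311E against vector passed with medians set equal (0.044) and without Q311E A (0.00208) or B (0.0297), and Q311E against wild type without Q311E B, at 0.54 (0.00788). KRT16 had 355 and 274 reads in the vector libraries, where KRT14, with which it shares 180 stretches, had its 41495 and 32438 reads; the part of shared stretches in this difference was not tested.

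KRT17, a type I stress keratin that is abundant in squamous carcinoma, moved in opposite directions in the MB21D2 lines. KRT17 (ENSG00000128422, chr17:41619441-41624842, minus strand) had 118 and 123 FPKM in Q311E cells, 33.3 and 33.4 FPKM in wild-type cells, and 75.1 and 79.3 FPKM in vector cells. The 3 groups were fully separate, with Q311E the highest and wild type the lowest. KRT17 rose in Q311E cells by 0.64 ± 0.07 against vector (limma adjusted p = 0.00845) and fell in wild-type cells, at −1.19 ± 0.07 against vector (adjusted p = 0.00469). Q311E cells had 3.61 times the mean FPKM of wild-type cells, a log2 difference of 1.82 ± 0.07 (adjusted p = 0.00164). The rise against vector was lost when only Q311E and vector were fitted (adjusted p = 0.0602), without either wild-type library (0.0584 and 0.0581) and without vector A (0.103) or vector B (0.086). The fall against vector was lost without either of the wild-type or vector libraries (0.086 to 0.12), and the difference between the MB21D2 lines when wild type A (0.0519) or B (0.0509) was left out.

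**Figure D2:**
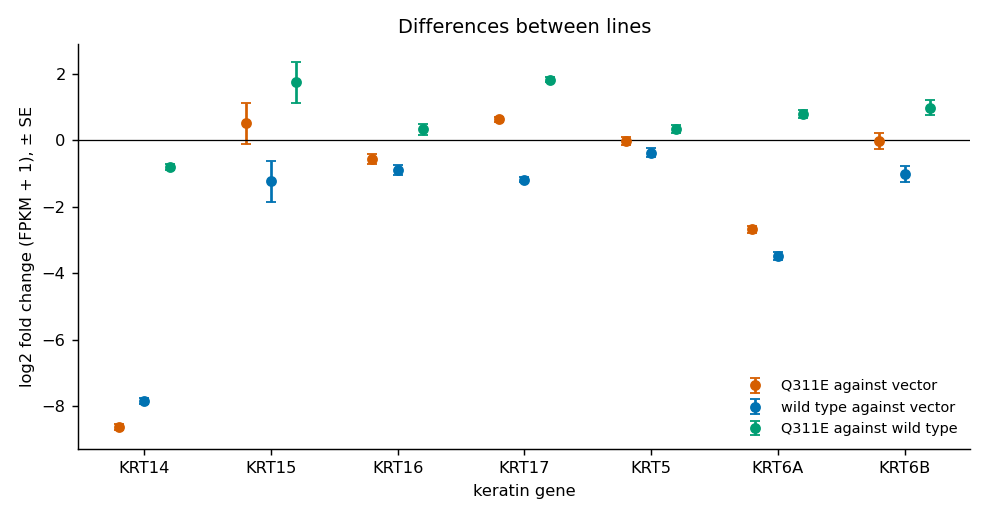
Log2 fold changes (of FPKM + 1) of the 7 tested keratins, with bars of ± SE, for Q311E against vector, wild type against vector and Q311E against wild type, from 1 limma fit. KRT6A is below 0 against the vector in both lines, KRT17 is at 0.64 in Q311E and −1.19 in wild type, and KRT14 lies at −8.63 and −7.83 as a description without a test.

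Of the 6 tested members other than KRT14, 2 passed for Q311E against vector (KRT17 higher, KRT6A lower), where 18.0% of all 11481 tested genes passed, 8.67% higher and 9.28% lower. For wild type against vector, 3 passed and all were lower (KRT6A, KRT16, KRT17), beside 12.3% of all genes in either direction, 3.54% higher and 8.76% lower. For Q311E against wild type, 3 passed and all were higher (KRT6A, KRT6B, KRT17), beside 27.5% in either direction, 17.5% higher and 10.1% lower. The directions of the background depended on the scaling: among all genes called for wild type against vector, 28.8% were higher, and 47.8% were with medians set equal or 43.9% with quantile normalization. For Q311E against wild type 63.4% of called genes were higher, and under those scalings 40% or 44.7% were. Both comparisons with the vector share its 2 libraries.

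The partners of the stress group also shifted in proportion. Summed KRT6 (KRT6A, KRT6B and KRT6C) came to 22.2 and 21.6 FPKM in Q311E cells, 10.6 and 11.9 FPKM in wild-type cells and 114 and 112 FPKM in vector cells. The sum is less exposed than its parts to how reads were split among the 3 copies, but their lengths differ and the handling of reads from shared stretches is unknown. KRT16 over this sum was 0.189 and 0.134 in Q311E cells, 0.241 and 0.217 in wild-type cells, and 0.0521 and 0.0478 in vector cells. KRT17 over the sum was 5.33 and 5.68 in Q311E cells, 3.13 and 2.81 in wild-type cells, and 0.659 and 0.708 in vector cells. Both type I stress keratins were thus in a higher ratio to KRT6 in every MB21D2 library than in either vector library.

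Across the members, type II exceeded type I in the MB21D2 lines. Type I over type II was 0.260 and 0.247 in Q311E cells, 0.0977 and 0.0950 in wild-type cells, and 1.33 and 1.22 in vector cells (FPKM ratio). KRT17 made up 92.2% and 82.5% of the type I members in Q311E cells and 82.0% and 81.9% in wild-type cells, against 8.84% and 10.0% in vector cells, where KRT14 made up 89.7% and 88.2%. KRT5 was the main type II member throughout, with 82.1% or more of their sum in every library.

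Other keratins, taken from chosen lists, were then counted in with the members. The lists leave some keratins out: 35 keratin genes besides the 8 members had a row, and KRT86, tested near KRT5, is not in the sums. With the listed keratins, type I over type II was 0.420 and 0.412 in Q311E cells and 0.394 and 0.394 in wild-type cells. In vector cells it was 1.03 and 0.989 (FPKM ratio). Per kilobase of transcript the means were 0.386 in Q311E cells, 0.338 in wild-type cells and 0.750 in vector cells, so that type II was the larger in all 3 lines on that scale. The sums cover 12 type I and 12 type II keratins, the members and the listed ones with a row. The type I sum averaged 445 ± 66.8 FPKM in Q311E cells, 402 ± 6.79 FPKM in wild-type cells and 1040 ± 30.2 FPKM in vector cells (SD, n = 2 each). The type II sum averaged 1069 ± 146 FPKM in Q311E cells, 1021 ± 15.9 FPKM in wild-type cells and 1030 ± 0.214 FPKM in vector cells. KRT14 was 0.157% and 0.227% of the type I sum in Q311E cells, 0.523% and 0.577% in wild-type cells, and 71.8% and 68.4% in vector cells. The type I keratin of simple epithelia, KRT18, made up most of the rest: it had 354 and 234 FPKM in Q311E cells, 347 and 356 FPKM in wild-type cells, and 192 and 206 FPKM in vector cells. KRT18 did not pass against the vector (limma adjusted p = 0.123 for Q311E and 0.0565 for wild type), and neither did its partner KRT8 (0.41 for Q311E and 0.174 for wild type).

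**Figure D3:**
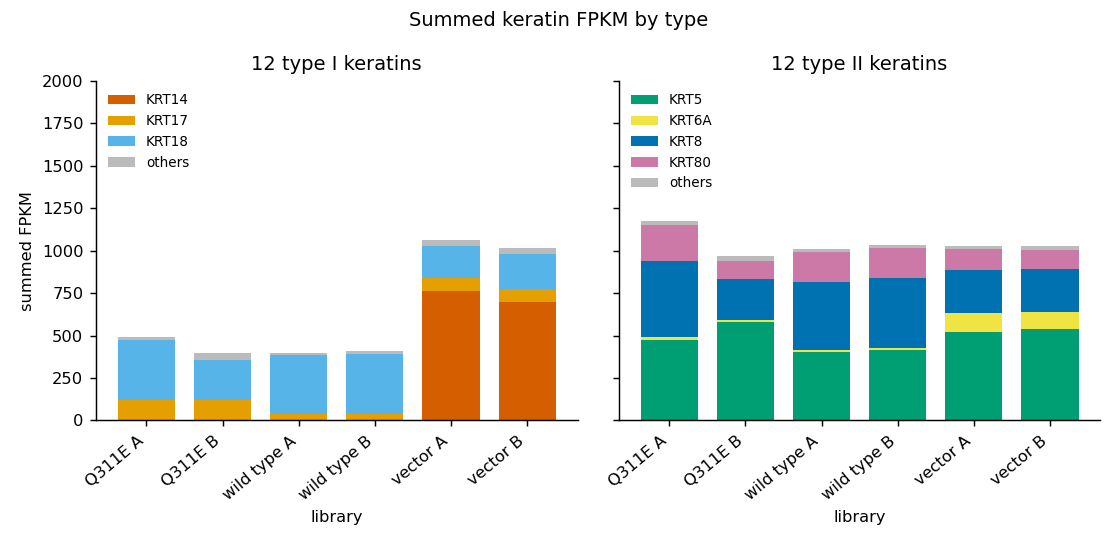
Summed FPKM of 12 chosen type I and 12 chosen type II keratins in each library, split by keratin, for Q311E, wild type and vector. The type I sum averages 445 FPKM in Q311E, 402 FPKM in wild type and 1040 FPKM in vector, where KRT14 is its largest part, and the type II sum 1069, 1021 and 1030 FPKM in the same lines.

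The order of levels within a line turned in part on the length used. On the FPKM scale, in vector cells the order was KRT14, KRT5, KRT6A and KRT17. KRT15, KRT6B and KRT16 followed, where the libraries of KRT6B overlapped those of both others. In Q311E cells it was KRT5 and KRT17, then KRT6A, KRT15 and KRT6B, where the libraries of KRT15 overlapped those of both others, then KRT16 and KRT14. In wild-type cells it was KRT5, KRT17 and KRT6A, then KRT16, KRT15 and KRT6B at means of 2.57, 2.55 and 2.53 FPKM, whose libraries overlapped, and KRT14 at 2.22 FPKM. Per kilobase of principal transcript (reads per kilobase, scaled to library total), KRT17 was above KRT6A in vector cells, with means of 159 and 135. On that scale KRT15 was above KRT16 in wild-type cells (6.35 and 3.87) and KRT14 above KRT6B (3.01 and 2.56).

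Genes that anchor or regulate these keratins, and other keratins, were taken from 7 lists. Counts in these lists stand against shares of all tested genes called of 18.0% for Q311E against vector, 12.3% for wild type against vector and 27.5% for Q311E against wild type. In the basal anchorage list (hemidesmosome and laminin-332), 0 of 11 passed in limma for Q311E against vector (2 had an unadjusted p under 0.05, and 0 passed with limma-voom), 1 was higher for wild type against vector (ITGA3, the integrin alpha 3 chain, 0.56), and 1 was higher and 4 lower for Q311E against wild type. The list's median log2 change was 0.01 for Q311E against vector (all genes 0.00), 0.10 for wild type against vector (all genes −0.05) and −0.30 for Q311E against wild type (all genes 0.05). Among the 4 named, LAMB3, a laminin-332 chain, was higher in Q311E than in wild-type cells by 0.41 (limma adjusted p = 0.0207), while ITGA3 was lower at −0.51 (0.0207), LAMA3 at −1.42 (0.0251) and ITGA6 at −0.34 (0.0374).

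The plaque proteins that tie keratins to desmosomes went in both directions. Of 12, 2 were higher and 2 lower for Q311E against vector (18.0% of all genes called), 1 higher and 2 lower for wild type against vector (12.3%), and 2 higher and 3 lower for Q311E against wild type (27.5%). DSP, desmoplakin, was higher against vector by 0.52 in Q311E cells (limma adjusted p = 0.038) and 0.97 in wild-type cells (0.0128). DSG3, a basal desmosomal cadherin, was lower, at −0.83 in Q311E cells (0.0111) and −0.90 in wild-type cells (0.0123). PKP1, plakophilin 1, was lower at −0.93 in Q311E cells against vector (0.0112), and the desmosomal cadherin DSC2 was higher by 0.50 (0.0397). PKP1 averaged 0.439 FPKM in Q311E, 1.03 FPKM in wild-type and 1.74 FPKM in vector cells. The vector libraries thus lifted PKP1 over the filter of a mean of 1 FPKM.

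Of 20 listed transcription factors of basal keratins, 16 were tested. The comparisons gave 3 higher and 2 lower for Q311E against vector (18.0% of all genes called), 2 higher and 1 lower for wild type against vector (12.3%), and 3 higher and 2 lower for Q311E against wild type (27.5%). KLF4, a factor of epithelial differentiation, was higher against vector by 1.22 in Q311E cells (limma adjusted p = 0.00514) and 0.59 in wild-type cells (0.0235). OVOL1 was higher in Q311E cells by 0.98 (0.00924). RARA, the retinoic acid receptor alpha, was lower in Q311E cells, at −0.54 (0.0128), and higher in wild-type cells, at 0.39 (0.0344). TP63, the master factor of the basal layer, had 19.8 and 32.5 FPKM in Q311E cells, 14.8 and 14.5 FPKM in wild-type cells, and 30.2 and 29.8 FPKM in vector cells.

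Of the inducers and mediators of stress keratins, 16 of 18 were tested, with 3 higher and 0 lower for Q311E against vector (18.0% of all genes called), 2 higher and 2 lower for wild type against vector (12.3%), and 3 higher and 0 lower for Q311E against wild type (27.5%). The interleukins IL1A and IL1B, which keratinocytes release when injured, were lower in wild-type cells than in vector, at −3.62 (limma adjusted p = 0.00965) and −2.78 (0.00604), and higher in Q311E than in wild-type cells by 2.62 (0.0111) and 2.38 (0.00427). Against vector they were −1.01 (0.12) and −0.40 (0.236) in Q311E cells. JUN, an AP-1 subunit, was higher against vector in both lines, by 1.28 in Q311E (0.00562) and 1.07 in wild type (0.0105). STAT3 was higher by 0.43 in Q311E cells (0.0192).

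Of 9 genes of keratin turnover, 8 were tested, with 0 higher and 1 lower in each comparison with the vector (18.0% of all genes called for Q311E, 12.3% for wild type) and 1 higher and 0 lower for Q311E against wild type (27.5%). STUB1, a ubiquitin ligase, was lower against vector, at −0.66 in Q311E cells (limma adjusted p = 0.0101) and −0.42 in wild-type cells (0.034). TRADD, an adaptor that can bind keratins, was higher by 0.97 in Q311E than in wild-type cells (0.0335). In the lists of other type I and type II keratins, 2 and 3 genes were tested. KRT10, the keratin of differentiating layers, was lower against vector, at −0.83 in Q311E (0.0275) and −0.95 in wild-type cells (0.0244). KRT7, a simple epithelial keratin, was at −0.08 in Q311E (0.582) and lower, at −0.60, in wild-type cells (0.0188).

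No tested gene near KRT14 differed from the vector by as much as KRT14 did, but KRT14 was chosen for the size of that difference. A gene that is low in the vector also cannot fall as far on the log2(FPKM + 1) scale. Whether the change is limited to KRT14 was not tested. Among the 10 tested genes on each side on chromosome 17, 3 were higher and 5 lower for Q311E against vector, with a median of 0.10, and 2 were higher and 5 lower for wild type against vector, with a median of −0.23. That is 8 of 20 called beside 18.0% of all tested genes, and 7 of 20 beside 12.3%, with KRT16 and KRT17 among these neighbours. KRT16 and KRT17, which follow KRT14 directly among tested genes, were at −0.56 and 0.64 in Q311E and −0.90 and −1.19 in wild-type cells, and KRT15 on the other side was at 0.51 in Q311E and −1.23 in wild-type cells. FKBP10, a collagen prolyl isomerase located 6 tested genes from KRT14, was lower, at −2.57 in Q311E (limma adjusted p = 0.00143) and −2.78 in wild-type cells (0.000663). It had 0.550 and 0.498 FPKM in Q311E cells, 0.277 and 0.351 FPKM in wild-type cells, and 8.22 and 7.84 FPKM in vector cells. FKBP10 thus passed the filter of a mean of 1 FPKM only through the vector libraries. KRTAP2-3, a hair keratin-associated protein, was higher by 2.25 in Q311E (0.00177) and 0.66 in wild-type cells (0.0219). Around KRT5 on chromosome 12, 3 of 20 were higher and 1 lower for Q311E against vector. For wild type against vector 0 were higher and 3 lower, with KRT6A among the lower ones in both. For Q311E against wild type, 7 of 20 were higher and 2 lower around KRT5, and 5 of 20 higher and 2 lower around KRT14. Of all tested genes, 27.5% were called in that comparison.

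**Figure D4:**
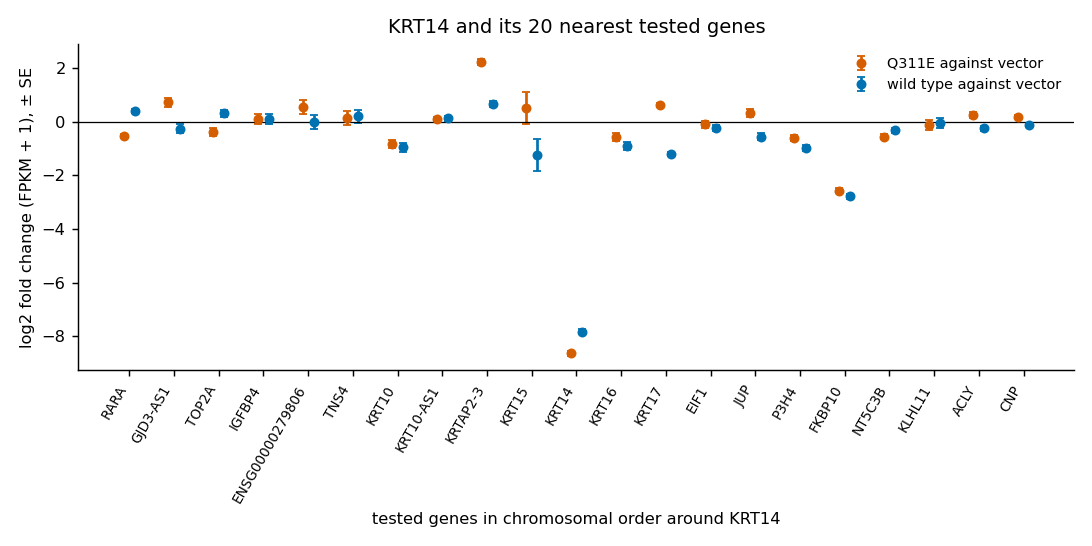
Log2 fold changes against vector of KRT14 and the 10 tested genes on each side in chromosomal order, for Q311E and wild type, with bars of ± SE. KRT14, chosen for its difference from the vector, stands at −8.63 and −7.83, and its neighbours lie between −2.78 and 2.25.

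The genes whose pattern over the 6 libraries was most like that of a keratin were sought among 139 tested genes whose group means differed by at least 2 on the log2 scale, with Pearson's r given as a description. Most like KRT14 were TMPRSS15 and HORMAD2 (r = 0.996 each), FKBP10 (0.988), DEFB4B (0.983) and RN7SL3 (0.967). HORMAD2 had 0 and 0.0180 FPKM in Q311E cells, 0 and 0 FPKM in wild-type cells and 12.3 and 12.6 FPKM in vector cells. FKBP10 (0.988), NDRG2 (0.976) and HORMAD2 (0.975) were most like KRT6A. FGFBP1 (0.998), C15orf48 (0.996) and STARD4 (0.994) were most like KRT17, and CCL20 (0.994), ADGRF5 (0.978) and PIGR (0.978) most like KRT15. WFDC21P (0.994), DDIT4 (0.993) and SLPI (0.989) were most like KRT5, GAMT (0.945), IL1B (0.932) and SCD (0.930) most like KRT6B, and PLEKHG4B (0.971), KRT6A (0.944) and RNASE7 (0.936) most like KRT16. With 6 libraries in 3 groups, such values are set largely by the 3 group means, and for KRT15 and KRT5 also by the gap between the Q311E libraries. CCL20 had 19.75 FPKM in Q311E A and 154.2 FPKM in Q311E B, and DDIT4 had 50.2 and 189.7 FPKM.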

How the data were processed

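Total RNA of CAL27 lines was sequenced with standard Illumina library protocols, per the labels. The authors deposited FPKM values for 30178 human Ensembl genes, and the submitters' processing notes name CASAVA with the mouse builds mm8 and mm9, without a role. The sources used here do not give the aligner, counting tool, annotation or strand setting. Names matched 29993 IDs, and positions, transcripts and sequences came from GENCODE release 29 on GRCh38. Whole reads, within a tolerance of 0.001, were recovered from the FPKM steps for 30030 genes (99.51%), with lengths sought from 0.25 to 4 times the annotated one; 22361 genes had exactly that length. Among members, the length was fitted for all except KRT17.

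The test was that of limma 3.58.1 (R 4.3.3), with a variance trend, fitted to log2(FPKM + 1) of all 3 groups together, for the 11481 genes with a mean of at least 1 FPKM over the 6 libraries (3 residual degrees of freedom). Calls needed a Benjamini-Hochberg adjusted p (two-sided, over all genes tested) below 0.05. The fit was also run on simulated data with the same dispersion in all groups. That run does not show how the fit handles the unequal spread between libraries found here. Coding sequences were aligned with mafft 7.526, and other steps used Python 3.11.15, numpy 2.4.6, pandas 2.3.3 and matplotlib 3.10.9.

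Named genes are the 8 members, their pseudogenes, up to 4 passing members of each list by smallest adjusted p, the genes around KRT14 and KRT5, and the 5 (KRT14) or 3 (other members) most like genes; TP63 and the keratins of the sums were added after their values were seen. A result for a listed transcription factor is not reported here. The members and lists were chosen with earlier results of these data known. Alternatives covered the pseudocount (0.1), the filter, 3 scalings, limma-voom on recovered reads (for 11471 of the tested genes), fewer groups, the variance prior, a replicate block and each library left out. Ratios per kilobase of principal transcript were chosen after seeing the data.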

Additional observations from a re-analysis of the deposited data

Results flagged for a closer look

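KRT17 moved in opposite directions in the MB21D2 lines against the same vector libraries. It was higher in both Q311E libraries (118 and 123 FPKM) and lower in both wild-type libraries (33.3 and 33.4 FPKM) than in the vector libraries (75.1 and 79.3 FPKM). The difference between the lines was tested directly, as Q311E against wild type, at 1.82 ± 0.07 on the log2 scale (SE, limma adjusted p = 0.00164). MB21D2 itself was lower in Q311E than in wild-type cells, so its form and its level cannot be told apart here.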

How the results depend on the processing

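Of 298 tested fold changes of single keratins under the alternatives, 244 kept their direction and side of the threshold. For wild type against vector, 6 keratins other than KRT14 passed when only these groups were fitted (3 with all groups), and 1 to 6 with a library left out. For Q311E against vector, 1 passed in a fit of only these groups (2 with all groups) and 0 to 4 with a library left out. For Q311E against wild type, 0 to 5 passed with a library left out (3 with all). Where 0 passed in limma, 2 or 3 keratins had an unadjusted p under 0.05. With the letter as a replicate block, 4 keratins passed for wild type against vector, where KRT6B joined (limma adjusted p = 0.0498). Q311E against vector had 2 and Q311E against wild type had 3. The B minus A differences over genes gave correlations of −0.00613 (Q311E with wild type) and −0.0255 (wild type with vector). For Q311E with vector the correlation was 0.387, so these groups shared part of their difference between A and B. The source of this shared part was not tested.

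Per kilobase of transcript, KRT14 over KRT5 was 0.00133 (Q311E), 0.00448 (wild type) and 1.15 (vector), KRT16 over summed KRT6 was 0.203 (Q311E), 0.286 (wild type) and 0.0601 (vector), and KRT17 over summed KRT6 was 9.51 (Q311E), 5.08 (wild type) and 1.13 (vector). Differences near 0 for Q311E against vector changed sign; the cause was not tested. KRT5 was 0.004 with TPM scaling, −0.164 to 0.13 with a library left out (0.13 without Q311E A, 0.003 without vector B). KRT6B was 0.016 with TPM scaling, 0.02 with limma-voom, and −0.351 to 0.334 with a library left out (0.104 without Q311E A, 0.334 without vector B). KRT15 was −0.454 without Q311E B and 1.476 without Q311E A.

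Over all genes, wild type against vector called 1412 genes (393 without a filter, 5273 with only these groups, 7 to 5238 with a library left out). Q311E against vector called 2061 (1210, 262, and 3 to 5662), and Q311E against wild type 3162 (1608, 973, and 0 to 6939; at 0, 2836 or 2911 had an unadjusted p under 0.05). Quantile normalization moved the median of all genes for Q311E against wild type to −0.066, against 0.046 as deposited. Leaving a library out leaves a group with 1, assumed to vary like the others. Members with few reads, KRT6C above all, limit what this depth can show.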
